A study of Mus musculus with 8 samples.

Results

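The genes encoding the proteasome, the protease complex that degrades ubiquitin-tagged proteins, were examined in mouse liver after direct activation of the eIF2α kinase PERK. Members were all genes whose symbol begins with Psma, Psmb, Psmc, Psmd, Psme or Psmf and that had a probe set naming no other gene. This rule found 42 genes on 53 probe sets, of 8251 genes and 12422 non-control probe sets on the Affymetrix MG-U74Av2 array. The rule itself uses no measured value, but it was set with earlier results of these data known. Psma8, Psmb11, Psme2, Psme2b and Psmf1 met the symbol rule but had no probe set of their own here, and 2 probe sets that name both Psme2 and Psme2b were left out.

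The 8 arrays, 2 for each of 4 groups, measured total liver RNA. All mice carried Ttr::Fv2E-PERK, a transgene in which the liver-active transthyretin (Ttr) promoter drives a PERK kinase fused to a drug-binding dimerization domain, so every control group carried it too. The ligand AP20187 dimerizes the fusion and switches the kinase on without protein misfolding. The groups were untreated Atf4+/+, AP20187-treated Atf4+/+, untreated Atf4-/- and AP20187-treated Atf4-/-, on an FvB/n and Swiss Webster background. Atf4-/- mice lack ATF4, the transcription factor whose translation rises when eIF2α is phosphorylated. Age, dose and time after AP20187 are not in the labels used here, and no label says whether a group's 2 arrays are different animals, so p-values measure the spread between these arrays. The comparisons asked how AP20187 changed expression in each genotype and how the genotypes differed.

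Values are the authors' linear ratios, whose median over the 8 arrays was at least 0.99 for 85.79% of probe sets. For the selected probe set of every member but Psmc3ip this median was 1 to 1.005, so a ratio of 1 was about the gene's own middle value. It was 0.625 for Psmc3ip and 0.245 for the Psmb4 probe set 98558_r_at, and every ratio of Ifng and Ifit2 was below 1. Ratios of different genes do not compare their levels. Because no level is given, the liver label could not be checked against the abundance of hepatocyte markers. The median ratio of 12 hepatocyte markers was between 0.885 and 1.18 on the 8 arrays. Changes below are differences of mean log2(ratio + 0.1) ± SE from limma fitted to all 8 arrays (n = 2 per group), with p-values adjusted over the 12422 probe sets. In bulk liver, fewer cells of a type and less RNA per cell cannot be told apart.

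Some arrays stood apart or went against their labels. The Atf4 ratio, measured by the array's own Atf4 probe set, was 2.36 and 0.30 on the arrays labelled untreated Atf4+/+ and 0.29 and 1.67 on those labelled untreated Atf4-/-. It was 4.17 and 5.75 in treated Atf4+/+ liver and 0.25 and 0.33 in treated Atf4-/- liver. The replicate 2 array of both untreated groups therefore went against its label, and the array labelled untreated Atf4-/- replicate 1 is described elsewhere in its labels as Atf4+/+. The group of untreated Atf4+/+ replicate 1 was taken from its description, and that of every other array from its source name. Counts and medians of the constitutive, core α and immunoproteasome genes within a genotype are given with and without both untreated replicate 2 arrays, and other values within a genotype with all arrays. The change averaged over genotypes uses the same 4 treated and 4 untreated arrays whichever genotype each untreated array has. Its SE and p-value still depend on the grouping, and so does its size where the untreated groups become unequal. With the array labelled untreated Atf4-/- replicate 1 grouped by its description, the lowest adjusted limma p of a member was 0.174, against 0.293 as labelled. Treated Atf4+/+ replicate 2 had the lowest log2 ratio of 5' to 3' Actb probes, -0.64 against -0.19 or higher on the other arrays, while its Gapdh value was -0.06 against -0.05 or higher. Whether this bears on any proteasome gene was not tested.

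As background, the proteasome consists of a barrel-shaped 20S core capped by 19S regulatory particles. The core is built from α rings, which gate entry, and β rings, which hold the proteolytic sites. The 19S base unfolds substrates with a ring of ATPases, and the lid removes ubiquitin. Interferon-γ induces replacement catalytic subunits, Psmb8, Psmb9 and Psmb10, and the activators Psme1 and Psme2, which together give the immunoproteasome and favour peptides for MHC class I. In many cells, the transcription factors NRF1 (Nfe2l1) and NRF2 (Nfe2l2) raise the genes of the constitutive subunits through antioxidant response elements when proteasome activity is short. The members comprised 7 core α genes, 7 core β genes, 6 base ATPases, 3 non-ATPase base genes, 8 lid genes, 4 immunoproteasome genes, the other activators Psme3 and Psme4, and 5 assembly factors or genes that share only the prefix. The first 5 classes, 31 genes, are called constitutive subunits below.

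Promoter sequence was in the RefSeq table of build GRCm38.p6 for 36 of the 42 members. Its 250 bases before the annotated start were searched on both strands for 5 motifs. These 4 windows are shown because Psma1 and Psma2 are core α genes that differed in direction between the genotypes and hold a CCAAT box, while Psmd13 and Psmb8 are the members with the ATF4-type and the interferon-γ motif. Capitals mark the motif, each strand is read 5′ to 3′ toward the gene, and the reference strain need not match the mice used. The Psma1 window is chr7:114276117-114276366 on the minus strand, and the Psma2 window is chr13:14612992-14613241 on the plus strand. The Psmd13 window is chr7:140882144-140882393 and the Psmb8 window chr17:34197945-34198194, both on the plus strand.
Psma1: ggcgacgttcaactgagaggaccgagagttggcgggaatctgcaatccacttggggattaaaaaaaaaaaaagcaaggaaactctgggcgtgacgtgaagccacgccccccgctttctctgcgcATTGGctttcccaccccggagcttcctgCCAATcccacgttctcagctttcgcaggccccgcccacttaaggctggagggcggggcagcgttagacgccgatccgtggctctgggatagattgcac
Psma2: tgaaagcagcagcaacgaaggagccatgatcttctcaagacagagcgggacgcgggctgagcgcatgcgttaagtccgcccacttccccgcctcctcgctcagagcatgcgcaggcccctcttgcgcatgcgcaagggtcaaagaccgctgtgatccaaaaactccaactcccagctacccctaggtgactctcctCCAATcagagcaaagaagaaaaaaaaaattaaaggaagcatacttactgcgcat
Psmd13: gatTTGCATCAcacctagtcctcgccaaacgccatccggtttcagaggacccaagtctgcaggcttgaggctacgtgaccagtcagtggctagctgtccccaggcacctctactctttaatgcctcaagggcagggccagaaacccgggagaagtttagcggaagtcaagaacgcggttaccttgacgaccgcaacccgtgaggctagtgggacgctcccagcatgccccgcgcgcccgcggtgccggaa
Psmb8: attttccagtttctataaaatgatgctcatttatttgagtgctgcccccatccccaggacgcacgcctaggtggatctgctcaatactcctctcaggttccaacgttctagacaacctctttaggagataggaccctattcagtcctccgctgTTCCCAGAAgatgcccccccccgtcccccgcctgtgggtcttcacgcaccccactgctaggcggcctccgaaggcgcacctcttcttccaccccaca

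The CCAAT box, searched as CCAAT, lay in a window of 15 of the 36 members and in 33.85% of all 32851 promoter windows in the table. Members are counted by gene, with a match in any window of the gene, while the percentages are of windows. A gene with several windows thus has more chances of a match, and the shares are not strictly comparable. Among core α genes it was in 5 of 7, Psma1, Psma2, Psma3, Psma6 and Psma7. The antioxidant response element, searched as TGACNNNGC, lay in a window of 5 of 36 members, Psmb5, Psmb6, Psmc6, Psmd12 and Psmd9, and in 10.16% of all windows. TGATGNAA, the core of the C/EBP-ATF composite element through which ATF4 acts, was in the Psmd13 window alone among members and in 3.452% of all windows. TTCNNNGAA, the interferon-γ activated site, was in the Psmb8 window alone and in 7.02% of all. GAAANNGAA, an interferon regulatory factor element, was in the windows of Psmb3, Psmd4 and Psmd9 and in 7.129% of all. A match describes these letters only, and an element outside the window is not seen.

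No proteasome gene changed past the adjusted limma test in any of the 6 comparisons. Among the 53 member probe sets, the lowest adjusted limma p was 0.421 for AP20187 in Atf4+/+ liver, 0.635 for AP20187 in Atf4-/- liver, 0.293 for AP20187 averaged over genotypes, 0.906 for the difference of the 2 effects, 0.809 for genotype with AP20187 and 0.925 for genotype without it. The background was also low: 0.00805% of all probe sets passed for AP20187 in Atf4+/+ liver, 0.0403% for the average, and 0% in the other 4 comparisons. At an unadjusted limma p under 0.05, 2 of 53 member probe sets were counted in Atf4+/+ liver against 9.1% of all probe sets, 3 in Atf4-/- liver against 7.42%, and 3 for the average against 11.3%. The counts were 2 against 5.46% for the difference of the effects, 1 against 5.31% for genotype with AP20187 and 1 against 5.32% for genotype without it. In each comparison the members' share was below that over all probe sets.

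The intervals put a limit on many of the changes. With AP20187 in Atf4+/+ liver, 33 of 42 members had a 95% confidence interval lying wholly within a 2-fold change (log2 of -1 to 1), against 42.73% of all genes. In Atf4-/- liver 35 of 42 did, against 45.36%, and for the average over genotypes 38 of 42 did, against 65.18%. The exceptions for the average were Psmb4, Psmc4, Psmd2 and Psmc3ip. For the difference between the genotypes' responses 11 of 42 intervals lay within these bounds, against 17.67% of all genes. A difference in response of 1 on this scale was thus not bounded for most members. These intervals are per gene and not adjusted for the number of genes. On the same arrays, the median log2 change of 12 genes of the integrated stress response was 2.77 in Atf4+/+ and 0.89 in Atf4-/- liver. The list includes Atf4 itself, which the Atf4-/- mice lack, and Eif2ak3, the gene of PERK. Atf3 (a stress-induced transcription factor) rose by 4.15 ± 0.33 averaged over genotypes (limma adjusted p = 0.037).

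Proteasome genes also varied little from array to array. The median SD of log2(ratio + 0.1) over the 8 arrays was 0.204 for members and 0.342 for all genes, and 35 of 42 members lay below the all-gene median. In 38 of 42 members every ratio was between 0.5 and 2, against 64.73% of all genes. The 4 exceptions were Psmb4, Psmc4, Psmd2 and Psmc3ip. The narrowest were Psmd1, the base scaffold subunit, whose ratios ran from 0.91 to 1.10, and Psma2, from 0.87 to 1.10.

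**Figure D1:**
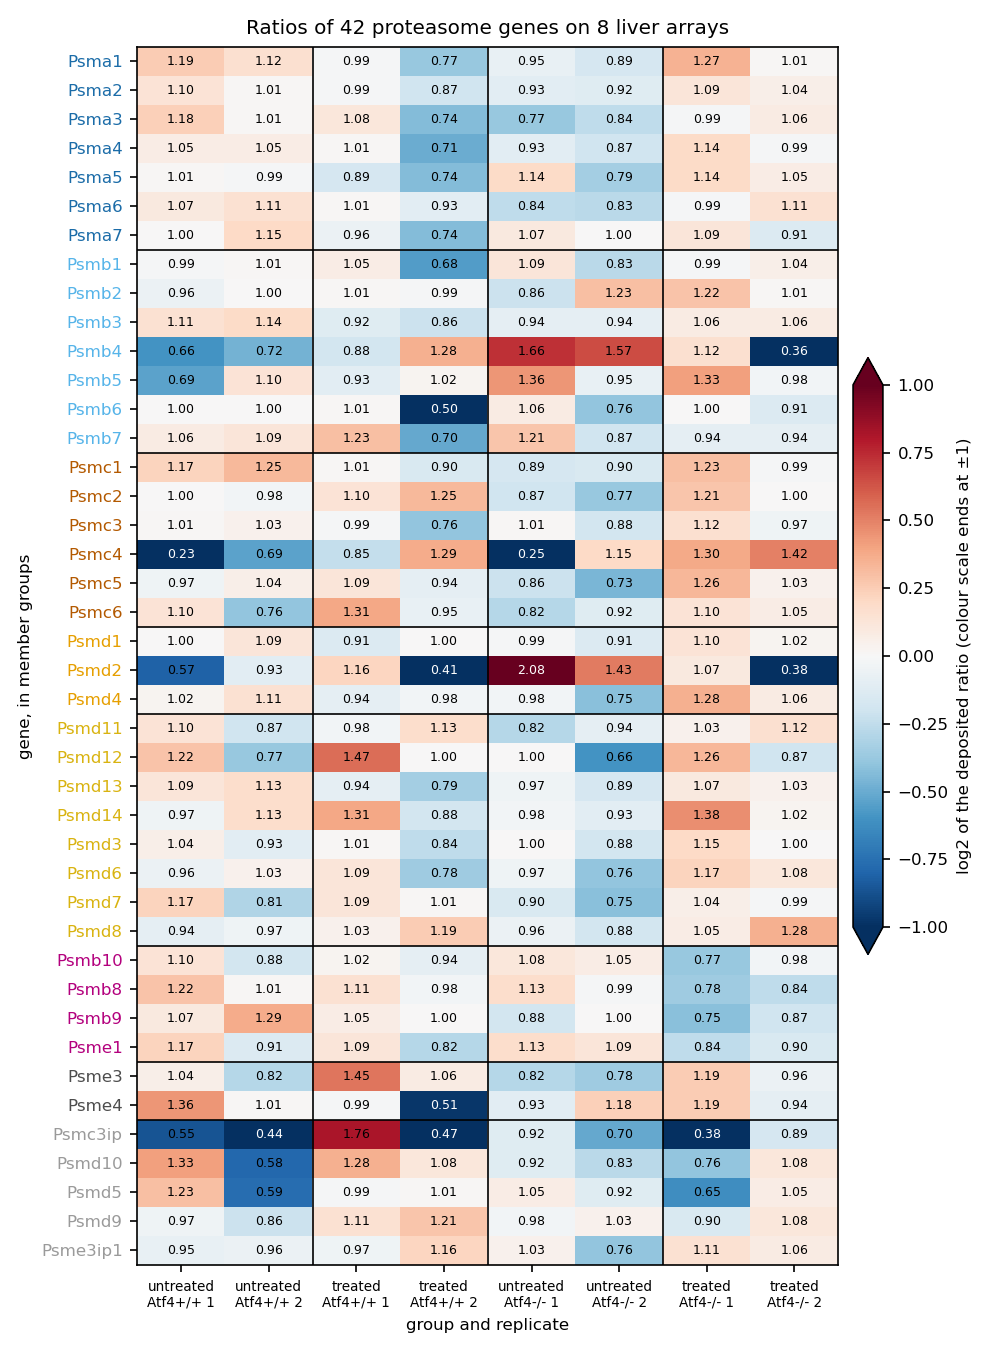
Deposited ratio of each of the 42 proteasome genes (rows, in member groups) on each of the 8 arrays (columns, by group and replicate), with colour giving log2 of the ratio. Most cells are near 1; Psmb4, Psmc4, Psmd2 and Psmc3ip hold the widest swings, and treated Atf4+/+ replicate 2 is low for most core α genes.

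Core α genes, which form the outer rings, had the highest median pairwise correlation of the member classes on the selected probe sets. On the arrays labelled untreated Atf4+/+ their median ratio was 1.07 and 1.05, in treated Atf4+/+ liver 0.99 and 0.74, on those labelled untreated Atf4-/- 0.93 and 0.87, and in treated Atf4-/- liver 1.09 and 1.04. All 7 had a negative log2 change with AP20187 in Atf4+/+ liver (median -0.27, from -0.37 to -0.15), and 6 of 7 a positive one in Atf4-/- liver (median 0.22, from -0.05 to 0.31). Averaged over genotypes the median was -0.03, since the values of opposite sign cancel. Without both untreated replicate 2 arrays, 7 of 7 were below 0 in Atf4+/+ and 5 of 7 above 0 in Atf4-/- liver (medians -0.28 and 0.18). The median pairwise correlation over the 8 arrays was r = 0.73, against 0.0034 for genes with a row median of at least 0.99, a description over arrays that share groups.

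Psma6 had the highest averaged change of the α class. Its ratios were 1.07 and 1.11 on the arrays labelled untreated Atf4+/+, 1.01 and 0.93 in treated Atf4+/+ liver, 0.84 and 0.83 on those labelled untreated Atf4-/-, and 0.99 and 1.11 in treated Atf4-/- liver. The treated arrays lay below the untreated ones in one genotype and above them in the other, and the averaged log2 change was 0.07 ± 0.14. Psma7, at the low end, had 1.0 and 1.15 untreated and 0.96 and 0.74 treated by the Atf4+/+ labels, and 1.07 and 1.0 untreated and 1.09 and 0.91 treated by the Atf4-/- labels. Its Atf4-/- groups overlapped, and the averaged log2 change was -0.18 ± 0.16. Psma1 ran from 0.77 in treated Atf4+/+ replicate 2 to 1.27 in treated Atf4-/- replicate 1, with log2 changes of -0.37 ± 0.23 (95% interval -0.91 to 0.18) in Atf4+/+ and 0.27 ± 0.23 (-0.28 to 0.82) in Atf4-/- liver. The log2 changes in Atf4+/+ and then Atf4-/- liver were -0.17 and 0.18 for Psma2, -0.26 and 0.31 for Psma3, -0.28 and 0.22 for Psma4, and -0.27 and 0.18 for Psma5.

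On their selected probe sets, core β genes, which include the proteolytic subunits, moved less together. Their median log2 change was -0.19 in Atf4+/+ and 0.08 in Atf4-/- liver, and their median pairwise r was 0.06. This r depends on the probe sets chosen and was not computed with others. On treated Atf4+/+ replicate 2, selected Psmb1 and unselected probe sets of Psmb4 (98557_f_at) and Psmb5 (101558_s_at) all read 0.68. The unselected Psmb1 probe sets read 1.20 and 1.15 there. The chymotrypsin-like subunit Psmb5 had ratios of 0.69 and 1.10 on the arrays labelled untreated Atf4+/+, 0.93 and 1.02 in treated Atf4+/+ liver, 1.36 and 0.95 on those labelled untreated Atf4-/-, and 1.33 and 0.98 in treated Atf4-/- liver. Its groups overlapped in both genotypes (averaged log2 change 0.07 ± 0.22). On its other probe set, 101558_s_at, the log2 changes were -0.29 ± 0.25 in Atf4+/+ and 0.33 ± 0.25 in Atf4-/- liver, where ratios of 0.83 and 0.85 untreated and 1.06 and 1.10 treated did not overlap. The difference between genotypes was 0.62 ± 0.36 there and -0.14 ± 0.44 on the selected probe set. Psmb6, the caspase-like subunit, was at 0.50 in treated Atf4+/+ replicate 2 and between 0.76 and 1.06 elsewhere. Psmb7, the trypsin-like subunit, ran from 0.70 on that same array to 1.23 on its replicate. The log2 changes in Atf4+/+ and then Atf4-/- liver were -0.43 and 0.08 for Psmb6, -0.19 and -0.12 for Psmb7, -0.22 and 0.08 for Psmb1, 0.03 and 0.10 for Psmb2, and -0.31 and 0.16 for Psmb3. On the other Psmb1 probe sets they were 0.04 and 0.40 on 160875_at, and 0.27 and 0.06 on 161923_at.

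Psmb4, a non-catalytic β subunit, had the largest swing of the core on its selected probe set, 98556_at. Its ratios were 0.66 and 0.72 on the arrays labelled untreated Atf4+/+, 0.88 and 1.28 in treated Atf4+/+ liver, 1.66 and 1.57 on those labelled untreated Atf4-/-, and 1.12 and 0.36 in treated Atf4-/- liver. Groups did not overlap in either genotype and the direction was opposite, with log2 changes of 0.56 ± 0.46 and -1.19 ± 0.46. The difference was -1.75 ± 0.65 (limma adjusted p = 0.906). A second Psmb4 probe set, 98557_f_at, was 0.68 in treated Atf4+/+ replicate 2 and between 0.94 and 1.18 on the other arrays, with a difference of 0.07 ± 0.39. The third, 98558_r_at, ran from 0.14 to 0.46, with log2 changes of 0.54 ± 0.38 in Atf4+/+ and 0.0045 ± 0.38 in Atf4-/- liver and a difference of -0.54 ± 0.53. The 3 probe sets thus gave differences of unlike size, and 1 of them was near 0.

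The base ATPases, which unfold and feed in substrates, had class medians with AP20187 of 0.12 in Atf4+/+, 0.33 in Atf4-/- and 0.26 averaged, against -0.06, -0.01 and -0.04 for all genes. Psmc4 had the highest change of the class. Its ratios were 0.23 and 0.69 on the arrays labelled untreated Atf4+/+, 0.85 and 1.29 in treated Atf4+/+ liver, 0.25 and 1.15 on those labelled untreated Atf4-/-, and 1.30 and 1.42 in treated Atf4-/- liver. Treated arrays were above untreated ones in each genotype, but over all 8 arrays the groups overlapped, since the array labelled untreated Atf4-/- replicate 2 exceeded treated Atf4+/+ replicate 1. The averaged log2 change was 1.16 ± 0.47 (limma adjusted p = 0.440), and 1.93 without both untreated replicate 2 arrays. Psmc3, at the low end, had 1.01 and 1.03 untreated and 0.99 and 0.76 treated by the Atf4+/+ labels, and 1.01 and 0.88 untreated and 1.12 and 0.97 treated by the Atf4-/- labels (averaged log2 change -0.04 ± 0.16).

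Psmc5 depended on the probe set. On 160534_at the log2 changes were 0.01 ± 0.22 in Atf4+/+ and 0.47 ± 0.22 in Atf4-/- liver, with ratios from 0.73 to 1.26. On 161921_f_at the ratios were 0.91 and 0.94 on the arrays labelled untreated Atf4+/+, 1.63 and 2.28 in treated Atf4+/+ liver, 0.83 and 0.40 on those labelled untreated Atf4-/-, and 1.33 and 1.06 in treated Atf4-/- liver. All 4 treated arrays of that probe set exceeded all 4 untreated ones, and its averaged log2 change was 0.95 ± 0.25 (limma adjusted p = 0.293), the lowest adjusted p of any member probe set. The log2 changes in Atf4+/+ and then Atf4-/- liver were -0.31 and 0.28 for Psmc1, 0.22 and 0.39 for Psmc2, and 0.26 and 0.28 for Psmc6. The other Psmc3 probe sets gave averaged changes of 0.05 and 0.04.

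Of the non-ATPase base genes, Psmd2, a scaffold that docks ubiquitin carriers, had ratios of 0.57 and 0.93 on the arrays labelled untreated Atf4+/+, 1.16 and 0.41 in treated Atf4+/+ liver, 2.08 and 1.43 on those labelled untreated Atf4-/-, and 1.07 and 0.38 in treated Atf4-/- liver. Replicates differed by more than 2-fold in both treated groups, and the averaged log2 change was -0.67 ± 0.42. Psmd4, a ubiquitin receptor, had 1.02 and 1.11 untreated and 0.94 and 0.98 treated by the Atf4+/+ labels, and 0.98 and 0.75 untreated and 1.28 and 1.06 treated by the Atf4-/- labels. Its averaged change was 0.13 ± 0.16. For Psmd1 the log2 changes were -0.12 ± 0.20 in Atf4+/+ and 0.14 ± 0.20 in Atf4-/- liver.

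Lid genes had a median log2 change of 0.07 in Atf4+/+ and 0.28 in Atf4-/- liver, and all 8 were positive in the latter (0.16 to 0.35). Psmd12 was at the high end of the average. Its ratios were 1.22 and 0.77 on the arrays labelled untreated Atf4+/+, 1.47 and 1.0 in treated Atf4+/+ liver, 1.0 and 0.66 on those labelled untreated Atf4-/-, and 1.26 and 0.87 in treated Atf4-/- liver, so the groups overlapped in both genotypes (0.31 ± 0.25). Psmd13, at the low end, had 1.09 and 1.13 untreated and 0.94 and 0.79 treated by the Atf4+/+ labels, and 0.97 and 0.89 untreated and 1.07 and 1.03 treated by the Atf4-/- labels (-0.09 ± 0.14). On the selected probe sets, Psmd8 was the one constitutive subunit whose 4 treated arrays all lay above the 4 untreated ones, with untreated ratios from 0.88 to 0.97, treated ratios from 1.03 to 1.28 and an averaged change of 0.25 ± 0.15. Over all genes 4.75% were higher in this way and 4.19% lower. Psmd14, the lid's deubiquitinase, had log2 changes of 0.04 ± 0.27 in Atf4+/+ and 0.29 ± 0.27 in Atf4-/- liver. The changes in the same order were -0.09 and 0.18 for Psmd3, -0.10 and 0.35 for Psmd6, and 0.10 and 0.27 for Psmd7.

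Psmd11, a lid subunit, again differed by probe set. The selected 94796_at had log2 changes of 0.10 ± 0.22 and 0.26 ± 0.22 in Atf4+/+ and Atf4-/- liver. On 160304_r_at the ratio was 0.98 and 1.09 on the arrays labelled untreated Atf4+/+, 0.61 on both treated Atf4+/+ arrays, 1.05 and 0.99 on those labelled untreated Atf4-/-, and 1.02 and 1.01 in treated Atf4-/- liver. That is -0.68 ± 0.19 in Atf4+/+ and -0.01 ± 0.19 in Atf4-/- liver (limma adjusted p = 0.421 and 0.998). On 160305_at the changes were 0.31 and 0.18. The 3 probe sets thus gave different signs in Atf4+/+ liver.

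**Figure D2:**
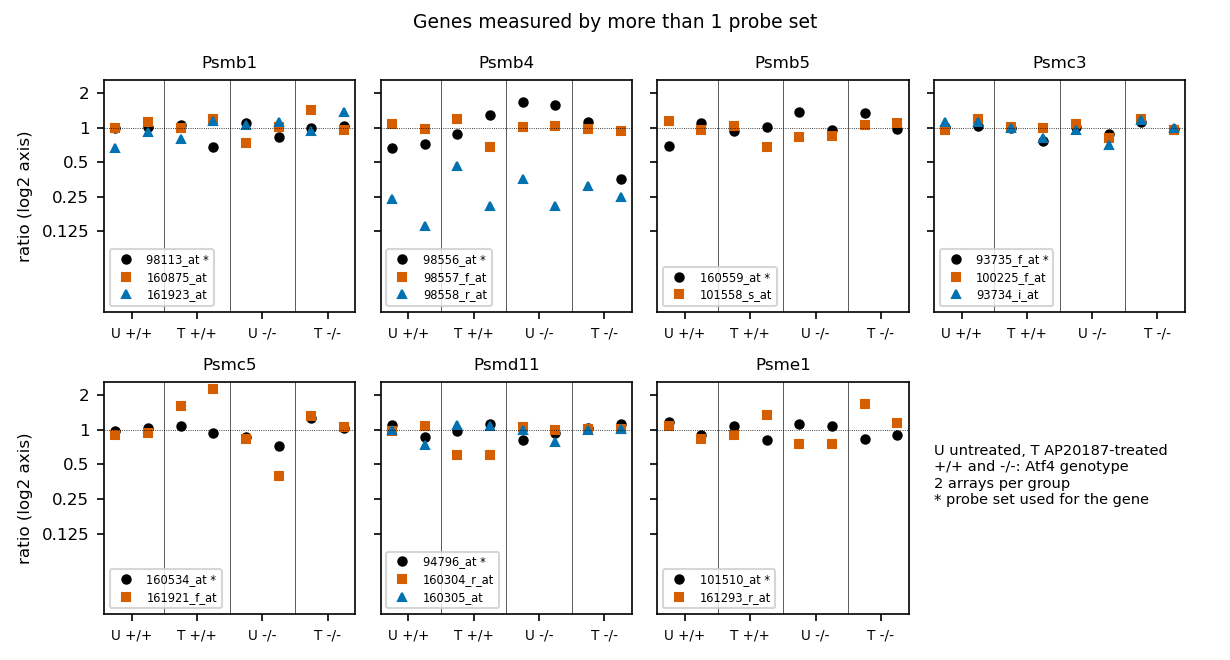
Deposited ratio (log2 axis) on each array for the 7 members with more than 1 probe set, by group (U untreated, T treated with AP20187, 2 arrays each), with the probe set used for the gene marked by an asterisk. In the Psmb1, Psmb4, Psmb5, Psmd11 and Psme1 panels, probe sets of 1 gene differ in the sign of the change in at least 1 genotype, and in the Psmc5 panel they differ in its size.

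Apart from the constitutive subunits, the 4 immunoproteasome genes were taken as a class of their own. Their median ratio was 1.135 and 0.96 on the arrays labelled untreated Atf4+/+, 1.07 and 0.96 in treated Atf4+/+ liver, 1.105 and 1.025 on those labelled untreated Atf4-/-, and 0.775 and 0.885 in treated Atf4-/- liver. Both treated Atf4-/- arrays were the lowest of the 8. The median log2 change with AP20187 was -0.10 in Atf4+/+ and -0.29 in Atf4-/- liver, against 0.22 for the constitutive subunits in Atf4-/- liver. Without both untreated replicate 2 arrays, the immunoproteasome medians were -0.18 and -0.31.

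Psmb8, which replaces the chymotrypsin-like subunit, had ratios of 1.22 and 1.01 on the arrays labelled untreated Atf4+/+, 1.11 and 0.98 in treated Atf4+/+ liver, 1.13 and 0.99 on those labelled untreated Atf4-/-, and 0.78 and 0.84 in treated Atf4-/- liver. The treated Atf4-/- arrays lay below the rest, and the log2 change there was -0.35 ± 0.21 (95% interval -0.86 to 0.17, limma adjusted p = 0.738). Psmb9, which replaces the caspase-like subunit, had 1.07 and 1.29 untreated and 1.05 and 1.0 treated by the Atf4+/+ labels, and 0.88 and 1.0 untreated and 0.75 and 0.87 treated by the Atf4-/- labels. Its log2 changes were nearly equal, -0.18 ± 0.21 and -0.19 ± 0.21. Psmb10, which replaces the trypsin-like subunit, had 1.10 and 0.88 untreated and 1.02 and 0.94 treated by the Atf4+/+ labels, and 1.08 and 1.05 untreated and 0.77 and 0.98 treated by the Atf4-/- labels. The Atf4+/+ groups overlapped (-0.01 ± 0.22), while in Atf4-/- liver both treated values were below both untreated ones (-0.27 ± 0.22).

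Psme1, an activator subunit, had ratios of 1.17 and 0.91 on the arrays labelled untreated Atf4+/+, 1.09 and 0.82 in treated Atf4+/+ liver, 1.13 and 1.09 on those labelled untreated Atf4-/-, and 0.84 and 0.90 in treated Atf4-/- liver on probe set 101510_at. Its log2 change in Atf4-/- liver was -0.32 ± 0.24. On 161293_r_at the Atf4-/- ratios were 0.75 and 0.76 untreated and 1.69 and 1.15 treated, a change of 0.81 ± 0.29 (limma adjusted p = 0.635). That probe set read 1.09 and 0.83 on the arrays labelled untreated Atf4+/+ and 0.91 and 1.34 in treated Atf4+/+ liver. The direction for Psme1 thus turned with the probe set.

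All 4 immunoproteasome genes on their selected probe sets were lower, with no overlap, in treated than in untreated Atf4-/- liver, where 22.1% of all genes were. Without both untreated replicate 2 arrays this held for all 4 as well, against 38.7% of all genes, and 4 of 4 were then also lower in Atf4+/+ liver, against 39.4%. With all arrays 1 of 4, Psmb9, was lower without overlap in Atf4+/+ liver. The test of the difference between genotypes gave -0.27 ± 0.30 for Psmb8, -0.01 ± 0.30 for Psmb9, -0.26 ± 0.32 for Psmb10 and -0.21 ± 0.33 for Psme1 (limma adjusted p from 0.945 to 0.999). Over the 8 arrays the immunoproteasome genes correlated with the median of the constitutive subunits at r = -0.15 for Psme1, -0.33 for Psmb9, -0.34 for Psmb8 and -0.51 for Psmb10, described over arrays that share groups. Other members were in that range or lower, with Psmd9 at -0.59, Psmb4 at -0.49 and Psmd5 at -0.38. With the median of the other immunoproteasome genes, r was 0.90 for Psmb8, 0.82 for Psmb10, 0.74 for Psme1 and 0.37 for Psmb9. The assembly chaperone gene Psmd5 had 0.63 with the immunoproteasome median.

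**Figure D3:**
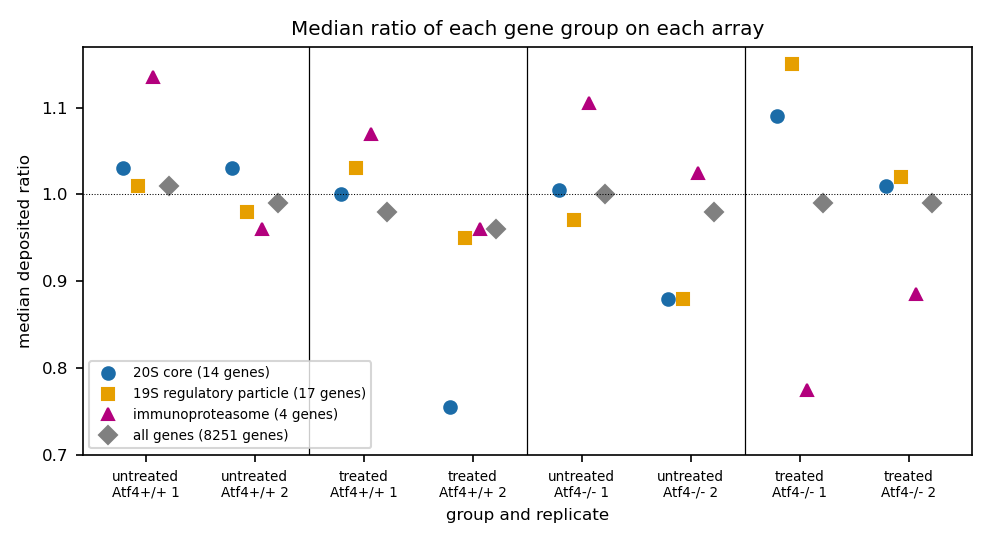
Median deposited ratio of the 20S core, the 19S regulatory particle, the immunoproteasome genes and all genes on each of the 8 arrays (vertical axis starting at 0.7). The core is lowest on treated Atf4+/+ replicate 2 at 0.755, and the immunoproteasome genes are lowest on the treated Atf4-/- arrays at 0.775 and 0.885 while the core and the regulatory particle are at 1.01 to 1.15 there.

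Of the other activators, Psme3, a nuclear activator, had ratios of 1.04 and 0.82 on the arrays labelled untreated Atf4+/+, 1.45 and 1.06 in treated Atf4+/+ liver, 0.82 and 0.78 on those labelled untreated Atf4-/-, and 1.19 and 0.96 in treated Atf4-/- liver. Treated values exceeded untreated ones within each genotype, with log2 changes of 0.39 ± 0.25 and 0.38 ± 0.25. Psme4, an activator that caps the core without ATP, had 1.36 and 1.01 untreated and 0.99 and 0.51 treated by the Atf4+/+ labels, and 0.93 and 1.18 untreated and 1.19 and 0.94 treated by the Atf4-/- labels. Its log2 change was -0.64 ± 0.34 in Atf4+/+ and 0.01 ± 0.34 in Atf4-/- liver. Neither gene passed the adjusted test.

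The last class holds the base assembly chaperones Psmd5, Psmd9 and Psmd10, the Psme3-binding protein gene Psme3ip1 and the meiotic recombination gene Psmc3ip, which is no subunit. Psmd10 had ratios of 1.33 and 0.58 on the arrays labelled untreated Atf4+/+, 1.28 and 1.08 in treated Atf4+/+ liver, 0.92 and 0.83 on those labelled untreated Atf4-/-, and 0.76 and 1.08 in treated Atf4-/- liver (averaged log2 change 0.21 ± 0.27). Psmd5 had 1.23 and 0.59 untreated and 0.99 and 1.01 treated by the Atf4+/+ labels, and 1.05 and 0.92 untreated and 0.65 and 1.05 treated by the Atf4-/- labels (-0.01 ± 0.26). Both were low on the array labelled untreated Atf4+/+ replicate 2, and the groups overlapped. The averaged changes were 0.14 ± 0.15 for Psmd9 and 0.20 ± 0.16 for Psme3ip1. Psmc3ip ran from 0.38 to 1.76, with an averaged change of 0.20 ± 0.43.

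Across the 31 constitutive subunits, most log2 changes with AP20187 were above 0 in Atf4-/- liver. In Atf4+/+ liver 38.71% were above 0, near the share of all genes, and this count turned on 1 array, as given below. The log2 change was above 0 for 12 of 31 in Atf4+/+ liver (median -0.12) and for 27 of 31 in Atf4-/- liver (median 0.22), against 44.67% and 48.9% of all genes. Groups did not overlap and were higher with AP20187 for 4 of 31 in Atf4+/+ liver, against 17.2% of all genes, and lower for 11 of 31, against 22.5%. In Atf4-/- liver 19 of 31 were higher, against 21.8%, and 2 lower, against 22.1%. Psmc1, Psmd4, Psma1, Psma2, Psma4, Psma6, Psmb3 and Psmd13 were lower in Atf4+/+ and higher in Atf4-/- liver, 8 of 31 against 2.79% of all genes, and Psmb4 on its selected probe set did the opposite. None of these differences passed the test of the difference itself: the difference was 0.64 ± 0.32 for Psma1 and 0.59 ± 0.30 for Psmc1 (limma adjusted p = 0.94 for both).

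These counts rested in part on single arrays. Without treated Atf4+/+ replicate 2, the array with the low Actb value and a core median of 0.755, the log2 change in Atf4+/+ liver was above 0 for 18 of 31 (median 0.03), so the sign of the median turned. Groups then did not overlap and were higher for 14 of 31, against 28.1% of all genes, and lower for 12 of 31, a share of 38.7% against 37.3% of all genes, and 9 of 31 were lower in Atf4+/+ and higher in Atf4-/- liver, against 5.3% of all genes. Core α genes were then still all below 0 in Atf4+/+ liver (median -0.10). Without both untreated replicate 2 arrays, 10 of 31 were above 0 in Atf4+/+ liver and 23 of 31 in Atf4-/- liver (medians -0.13 and 0.17), and 10 of 31 were lower in the first and higher in the second, against 10.4% of all genes. In that setting 6 of 31 were higher without overlap in Atf4+/+ liver, against 30.1% of all genes, and 14 lower, against 39.4%. In Atf4-/- liver 20 of 31 were higher, against 34.8%, and 6 lower, against 38.7%. The part of the Actb value in these results was not tested.

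**Figure D4:**
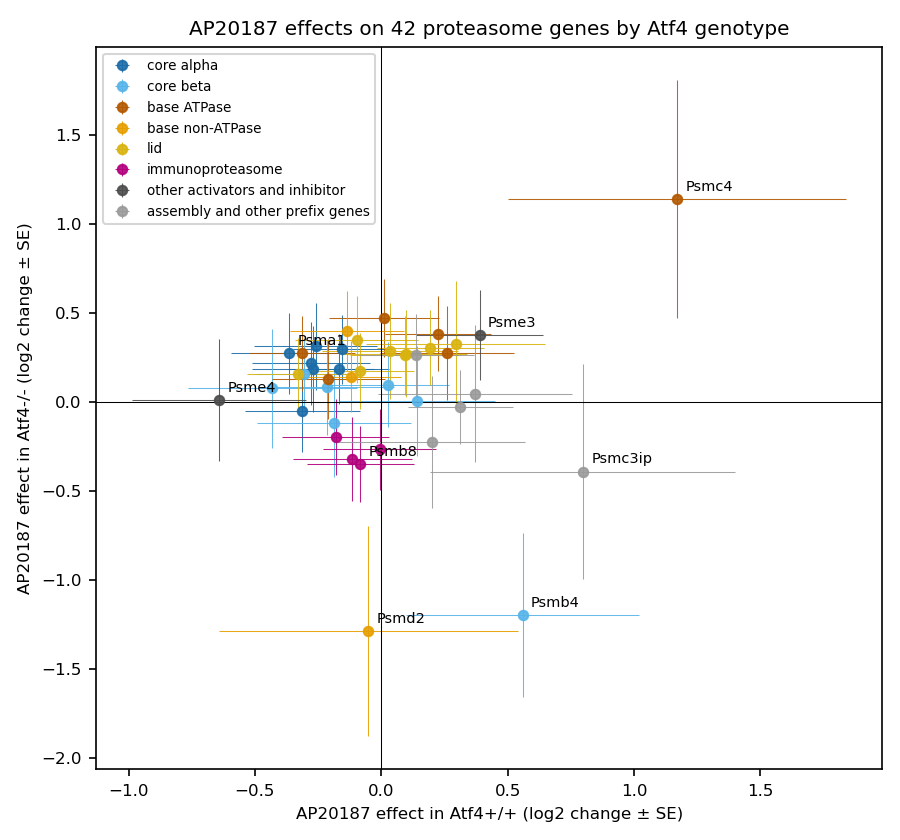
Log2 change with AP20187 in Atf4+/+ liver (horizontal) against that in Atf4-/- liver (vertical) for 42 proteasome genes on their selected probe sets, coloured by member group, with bars for the SE (n = 2 arrays per group). Core α genes lie left of 0 on the horizontal axis, immunoproteasome genes lie below 0 on the vertical axis, and Psmc4, Psmb4, Psmd2 and Psmc3ip stand away from the rest with long bars.

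With AP20187, 25 of 31 constitutive subunits had a higher mean in Atf4-/- than in Atf4+/+ liver (median log2 difference 0.18, against 0.05 for all genes). Groups did not overlap for 8 of 31, all higher in Atf4-/- liver, Psma1, Psma2, Psma5, Psmb3, Psmc4, Psmd1, Psmd4 and Psmd13, where 19.5% of all genes were higher and 15.8% lower. Psmb8 and Psmb9 were lower without overlap. On the untreated arrays as labelled, 26 of 31 constitutive subunits were lower in Atf4-/- (median -0.14). Here 12 of 31 were lower without overlap, against 17.5% of all genes, and 2 higher, Psmb4 and Psmd2, against 14.6%. With both replicate 2 arrays left out, 1 array per untreated group remained and the median was -0.05. The contrasts with and without AP20187 share no arrays with each other but each shares arrays with the AP20187 effects above.

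Arrays could be ordered by the constitutive subunits' median ratio. It was 1.12 in treated Atf4-/- replicate 1 and 1.02 in its replicate 2, 1.01 on both arrays labelled untreated Atf4+/+ and on treated Atf4+/+ replicate 1, 0.97 on the array labelled untreated Atf4-/- replicate 1, and 0.88 on the array labelled untreated Atf4-/- replicate 2 and on treated Atf4+/+ replicate 2. Members followed this median to different degrees. The lid subunit Psmd6 did so most closely (Pearson r = 0.95 over 8 arrays), followed by Psma4 at 0.90 and Psmd3 at 0.89, and 13 of 31 constitutive subunits had r of at least 0.7. Psmb4 was lowest at -0.49. For each of the 31, r was taken with the median of the other constitutive subunits, and the arrays share groups and scaling.

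Genes that work with the proteasome were summarised by list. Of 10 genes for core assembly and for subunits without the prefix, 6 had a positive log2 change in Atf4+/+ and 7 in Atf4-/- liver (medians 0.02 and 0.19). None passed the adjusted limma test. Against 9.1% of all probe sets in Atf4+/+ liver, 1 had an unadjusted limma p under 0.05 there. That was the core assembly chaperone Psmg2, with ratios of 0.62 and 1.06 on the arrays labelled untreated Atf4+/+, 1.34 and 1.42 in treated Atf4+/+ liver, 0.81 and 0.84 on those labelled untreated Atf4-/-, and 1.10 and 0.95 in treated Atf4-/- liver (averaged log2 change 0.49 ± 0.19, limma adjusted p = 0.432). Of 17 ubiquitin-conjugating enzymes 10 were positive in Atf4+/+ and 12 in Atf4-/- liver (medians 0.06 and 0.20). The smallest p of the average was that of Ube2b, at 0.41 ± 0.14 (limma adjusted p = 0.388). Of 11 shuttle and segregase genes 5 were positive in Atf4+/+ and 9 in Atf4-/- liver (medians -0.05 and 0.39). Zfand5, which binds ubiquitin and the proteasome, had an averaged change of 0.52 ± 0.16 (limma adjusted p = 0.355). The single measured gene of the ubiquitin and E1 list, Uba3, had changes of -0.29 and 0.21. Of 8 genes of ER-associated degradation 4 were positive in each genotype, and the ubiquitin ligase Rnf5 had an averaged change of -0.61 ± 0.21 (limma adjusted p = 0.384).

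Of 12 genes for the transcriptional regulation of proteasome subunits and NRF1 or NRF2 targets, 9 were positive in each genotype (medians 0.21 and 0.12), and none passed the adjusted limma test. At an unadjusted limma p under 0.05 there were 2 in Atf4+/+ liver, both positive, against 9.1% of all probe sets. In Atf4-/- liver there were 1 positive and 1 negative, against 7.42%. Srxn1, the NRF2 target encoding sulfiredoxin, had ratios of 0.83 and 0.81 on the arrays labelled untreated Atf4+/+, 1.93 and 3.52 in treated Atf4+/+ liver, 0.34 and 0.48 on those labelled untreated Atf4-/-, and 1.35 and 1.18 in treated Atf4-/- liver. All treated arrays were above all untreated ones, and its averaged log2 change was 1.50 ± 0.23 (limma adjusted p = 0.143). Keap1, which holds NRF2 down, was the negative one in Atf4-/- liver, at -1.28 ± 0.33 (limma adjusted p = 0.487), and had the smallest p of the list for the difference between genotypes, -1.59 ± 0.47 (limma adjusted p = 0.901).

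Beside the immunoproteasome genes, 11 genes of MHC class I presentation had medians of 0.01 in Atf4+/+ and -0.03 in Atf4-/- liver, and 20 interferon-response genes 0.31 and 0.07, with none past the adjusted limma test. At an unadjusted limma p under 0.05 there were 1 and 1 class I genes, both negative, and 4 and 3 interferon-response genes. The 4 in Atf4+/+ liver were positive, and in Atf4-/- liver 2 were positive and 1 negative. Over all probe sets the shares were 9.1% in Atf4+/+ and 7.42% in Atf4-/- liver. The class I gene H2-Q1 had ratios of 1.56 and 1.48 on the arrays labelled untreated Atf4+/+, 0.69 and 0.80 in treated Atf4+/+ liver, 1.26 and 1.20 on those labelled untreated Atf4-/-, and 0.39 and 0.65 in treated Atf4-/- liver. Every treated array was below every untreated one (averaged -1.04 ± 0.18, limma adjusted p = 0.184). Tap2, which carries peptides to class I molecules, had a difference between genotypes of -0.46 ± 0.34. Of the interferon-response genes, Irf9 had a change of 0.84 ± 0.22 in Atf4-/- and Ifit2 of 0.78 ± 0.24 in Atf4+/+ liver (limma adjusted p = 0.489 and 0.449). Ifng, which encodes interferon-γ, had ratios of 0.34 and 0.31 on the arrays labelled untreated Atf4+/+, 0.32 and 0.86 in treated Atf4+/+ liver, 0.68 and 0.74 on those labelled untreated Atf4-/-, and 0.32 and 0.26 in treated Atf4-/- liver. Its log2 change in Atf4-/- liver was -1.06 ± 0.39 and the difference between genotypes -1.64 ± 0.55 (limma adjusted p = 0.639 and 0.901). The interferon-induced GTPase gene Gbp3 had a difference of -1.27 ± 0.38 (limma adjusted p = 0.901). The part of these genes in the immunoproteasome values was not tested.

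Markers of other liver cells were set beside these values. The median ratio of 21 leukocyte markers was 0.93 and 1.02 in treated Atf4+/+ and 0.88 and 0.95 in treated Atf4-/- liver, and between 0.89 and 1.02 on the untreated arrays, with 9 of 21 positive with AP20187 in Atf4-/- liver. The 2 leukocyte genes with the smallest p in Atf4-/- liver had opposite signs, Coro1a with a log2 change of 1.43 ± 0.24 (limma adjusted p = 0.317) and the T cell receptor complex gene Cd3g with -1.92 ± 0.58 (limma adjusted p = 0.579). The median of 10 stellate and endothelial markers was 0.87 and 0.89 in treated Atf4-/- liver and 0.945 and 0.955 on the arrays labelled untreated Atf4-/-. It was 1.10 and 0.805 in treated Atf4+/+ liver and 1.205 and 1.135 on the arrays labelled untreated Atf4+/+. Their median log2 change with AP20187 was -0.26 in Atf4+/+ liver, with 9 of 10 below 0, and -0.20 in Atf4-/- liver, with 6 of 10 below 0. None of these markers passed the adjusted limma test in either genotype. At an unadjusted limma p under 0.05 there were 2 leukocyte markers in each, and 1 stellate or endothelial marker in Atf4+/+ liver. Over all probe sets the shares were 9.1% in Atf4+/+ and 7.42% in Atf4-/- liver. No marker level is known, since values are ratios. The part of these cells in the immunoproteasome values was not tested.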

How the data were processed

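Total liver RNA was hybridised to 8 Affymetrix MG-U74Av2 arrays. The deposited values are linear ratios in steps of 0.01, and the software and divisor behind them are not given in the sources used here. Precision is limited by the number of arrays. Of 12488 probe sets, 66 controls were left out. Gene names came from GEO's platform annotation: 10833 probe sets name 1 gene, 396 several and 1193 none. With R 4.3.3 and limma 3.58.1, log2(ratio + 0.1) was fitted to 4 group means, and 6 contrasts were tested with Benjamini-Hochberg adjustment over 12422 probe sets (residual degrees of freedom 4, prior 2.372). Called means adjusted p under 0.05. For a gene with several probe sets, those with a row median of at least 0.99 came first, then plain names, then the smallest within-group SD. Ratios on all arrays are given for immunoproteasome genes, members with p under 0.05 and the highest and lowest averaged change of each class, and for other lists the genes with the smallest p. The members and lists were chosen with earlier results of these data known. Tests on made-up data with the spread of all probe sets and 200 known changes recovered 0% of log2 changes of 0.5 in every comparison. They recovered 66.8% of changes of 2 for the average over genotypes. Alternatives changed the pseudocount, scaling, filter, moderation, arrays, grouping, probe set and threshold. Counts without treated Atf4+/+ replicate 2 or both untreated replicate 2 arrays were chosen after seeing the data. Replicates were numbered in accession order, which pairs no arrays.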

Additional observations from a re-analysis of the deposited data

Results flagged for a closer look

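In 9 constitutive subunits both treated arrays lay on one side of both untreated arrays in Atf4+/+ liver and on the other side in Atf4-/- liver. The difference of the log2 changes, Atf4-/- minus Atf4+/+, was 0.64 for Psma1, 0.59 for Psmc1, 0.54 for Psmd4, 0.50 for Psma4, 0.49 for Psmd13, 0.47 for Psmb3, 0.45 for Psma6 and 0.35 for Psma2, and -1.75 for Psmb4. The interaction was tested with limma for each and none passed, with adjusted p from 0.906 to 0.945. A pattern of this kind in the direction of the first 8 was seen in 2.79% of all genes and in the direction of Psmb4 in 1.85%.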

How the results depend on the processing

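No member probe set passed the adjusted limma test under any alternative run; the lowest adjusted p was 0.174, for the Psmc5 probe set 161921_f_at averaged over genotypes. Over all probe sets, the count past the test for AP20187 in Atf4+/+ liver was 1. It was 2 with quantile normalization, 8 without rows of median below 0.99, 17 with the array labelled untreated Atf4-/- replicate 1 grouped by its description, 15 at a threshold of 0.1, and 0 with only the groups compared, without both untreated replicate 2 arrays and on leaving out any array. The count averaged over genotypes was 5. It was 8 with a pseudocount of 0.5, 3 with none or with array weights, 9 with trimmed-mean scaling, 12 with quantile normalization or trended robust moderation, 10 without rows of median below 0.99, 21 at a threshold of 0.1, 0 without both replicate 2 arrays and 0 to 2 on leaving out 1 array. In Atf4-/- liver 1 passed at 0.1, and for the difference 2 passed at 0.1 or without rows of low median, against 0 otherwise. Leaving out 1 array at a time moved the constitutive median from -0.227 to 0.0347 in Atf4+/+ liver, from 0.23 to 0.44 for the difference, from 0.0668 to 0.282 for genotype with AP20187 and from -0.24 to -0.10 for genotype without it. The immunoproteasome median moved from -0.189 to 0.0467 in Atf4+/+ liver, from -0.38 to -0.10 for the difference (-0.10 also without both replicate 2 arrays) and from -0.12 to 0.16 for genotype without AP20187. The sign turned in Atf4+/+ liver without treated Atf4+/+ replicate 2 for both medians and without untreated Atf4+/+ replicate 1 for the immunoproteasome. The causes were not tested. No paired analysis was possible because the labels give no replicate numbers. With 2 arrays a group, the adjusted test recovered 0% to 8.4% of log2 changes of 1 in made-up data of known change, and ratios give no signal over background. The made-up data had the spread of all probe sets. Member probe sets varied less, with a median SE within a genotype of 0.242 against 0.325 for all, so recovery was not measured at their own spread.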

Other observations

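Outside the proteasome, the genes whose pattern over the 8 arrays was most like the median of the constitutive subunits were Ndufs4, a subunit of mitochondrial complex I (Pearson r = 0.97), Cltc, the clathrin heavy chain (0.96), and the transcriptional co-repressor gene Tle4 (0.95). The ubiquitin-conjugating enzyme gene Ube2a had r = 0.92. These were the highest of all genes measured, apart from Ube2a, which was chosen after its value was seen, and they are given as a description over 8 arrays that share groups and scaling.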
